A study of Mus musculus with 38 samples.

Results

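The untreated baseline compared here is placebo whole brain against placebo liver in C57BL/6J mice, an inbred laboratory strain. Its members are all 19 placebo arrays of the 38 in the series, 10 of whole brain and 9 of liver, chosen by their labels. The placebo mice were the controls of a study of slow-release pellets given for 30 days, so none was an unhandled mouse, and the sources used here do not say what the placebo held. The remaining 19 arrays, 10 of brain and 9 of liver, came from mice treated for that time with haloperidol, a dopamine D2 receptor blocker used against psychosis, and were used only to repeat the tissue comparison. Each array held total RNA from the snap-frozen and pulverized tissue of 1 mouse, and the sources used here give neither sex nor age. Whole brain pools all regions and cell types, and liver pools hepatocytes with their vessels, bile ducts and resident immune cells.

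Brain tissue is known for neurons that release transmitters at synapses, astrocytes that clear those transmitters and oligodendrocytes that wrap axons in myelin. Liver is known for hepatocytes, which secrete most plasma proteins, make bile acids, dispose of ammonia as urea and oxidise drugs with cytochromes P450. Both tissues share the machinery for making, folding and degrading proteins and for respiration.

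The deposited log2 values of brain and liver had been normalized apart, with array medians over all probes of 6.27 to 6.40 in placebo brain and 4.70 to 4.91 in placebo liver. Levels were therefore compared as percentiles, from 0 for the dimmest to 100 for the brightest of 18820 genes on the same array. A difference is always the mean percentile in placebo brain minus that in placebo liver, in points. A gene was called higher in a tissue when limma's adjusted p was under 0.05 and the difference was at least 20 points. Percentiles are compressed at the top: on a log2 distribution common to the 19 arrays, 1 point was worth 0.091 log2 units from percentile 50 to 51 and 0.50 from 98 to 99. For named genes above percentile 90 in both tissues the difference on that common log2 scale is given as well.

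The tissue markers matched the labels. Snap25, which encodes a protein of the membrane fusion complex at nerve endings, lay at percentiles 99.95, 99.96 and 99.98 (lowest, median and highest array) in placebo brain, against 19.3, 25.003 and 28.2 in placebo liver. The groups did not overlap, and the difference was 75.7 ± 0.93 points (SE; limma adjusted p = 4.28e-25). Alb, the gene of serum albumin, showed the opposite order, at 15.4, 17.6 and 22.02 in placebo brain and 99.98, 99.98 and 99.99 in placebo liver, a difference of -81.5 ± 0.81 points (SE; adjusted p = 1.10e-26).

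Across genes, correlations of percentiles ran from 0.989 to 0.997 between placebo brain arrays, from 0.987 to 0.994 between placebo liver arrays and from 0.647 to 0.671 between a brain and a liver array. Arrays are named by the tags in their titles. Brain array 1L stood apart: 279 genes lay at least 10 points from the median of the other brain arrays on it, against 9 to 82 genes on each of the other brain arrays and 122 to 300 on each liver array. Liver array 1L was high for a pair of lung genes. Without both 1L arrays the calls numbered 2531 in brain and 2185 in liver. With all arrays, of 18820 genes, 4724 (25.1%) were called, 2534 (13.5%) higher in placebo brain and 2190 (11.6%) higher in placebo liver. Adjusted p alone passed 15994 genes (85%), so the floor of 20 points, not the p, decided most calls. The calls had a median size of 37.9 points in brain and 32.1 in liver, and differences of at least 80 points numbered 66 in brain and 140 in liver. Arrays of the tissues did not overlap for 5324 genes higher in brain (28.3%) and 6190 higher in liver (32.9%). This held for all 2534 genes called higher in brain and for 2186 of the 2190 called higher in liver. The split of calls depends on the scale. By percentiles 53.6% were higher in brain, on the common log2 scale 48.8%, and 32.7% when the deposited log2 values were centred on each array's median. After that centring the median difference over genes was still -0.60 log2 units, beside -0.11 on the common scale. The median difference over all genes was -1.12 points, and 6027 genes (32.0%) lay within 5 points of 0.

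Many genes were high in one tissue and low in the other. Above percentile 90 in placebo brain and under 33.3 in placebo liver stood 239 genes, and 278 genes stood under 33.3 in brain and above 90 in liver. Another 686 genes were above 90 in both, and 4601 were under 33.3 in both. No detection calls were used, so a low percentile is a dim probe and does not show that a transcript was missing.

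**Figure D1:**
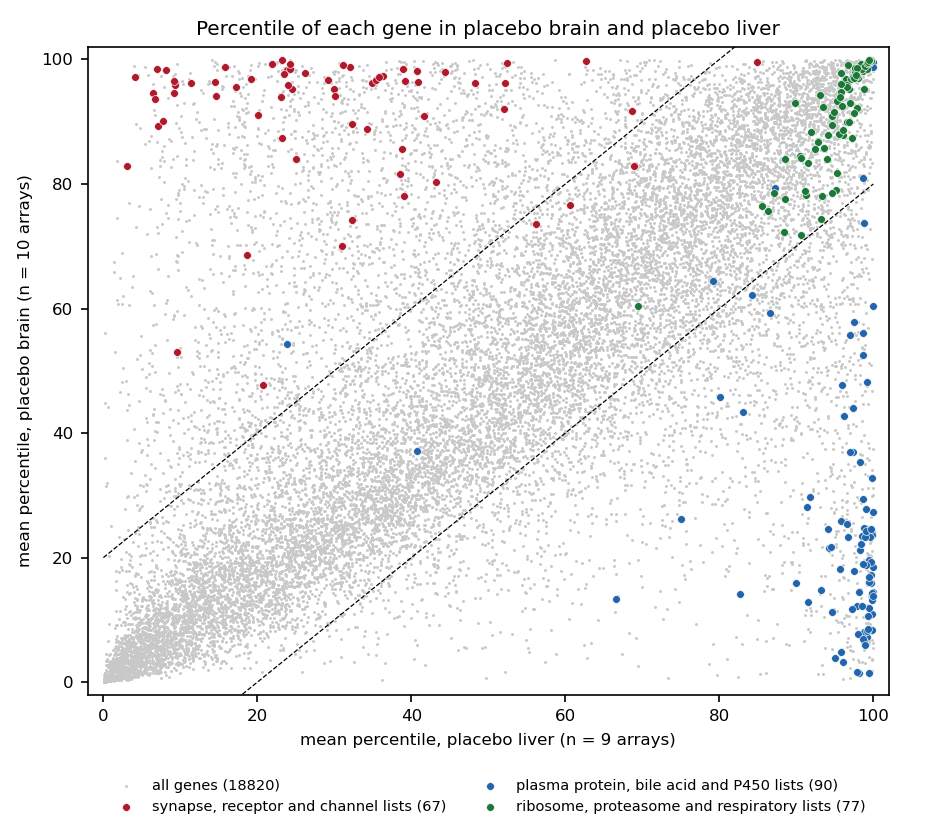
Mean percentile of each of the 18820 genes in placebo brain (vertical axis, 10 arrays) against placebo liver (horizontal axis, 9 arrays). Red points are genes of 4 synapse, receptor and channel lists, blue points genes of plasma protein, complement, coagulation, bile acid and P450 lists, and green points genes of ribosome, proteasome and respiratory lists, and the dashed lines mark differences of 20 points either way. Red points gather at the upper left, blue points at the lower right and green points at the upper right.

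The largest differences higher in brain belonged to genes of synapses, axons and their adhesion. Elmod1, a regulator of Arf GTPases, lay at 98.8, 98.8 and 99.1 in placebo brain and at 2.46, 3.61 and 6.09 in placebo liver, the largest brain difference at 94.9 points. Cnksr2, a scaffold of the postsynaptic side, differed by 93.3 points. Calb1, the calcium buffer calbindin of Purkinje cells and some interneurons, differed by 93.1 points, and array 1L was the lowest of the brain arrays. Lgi1, a secreted protein of excitatory synapses, differed by 93.04 points, and Glrb, the beta subunit of glycine receptors, by 91.7. Gria2, a subunit of AMPA glutamate receptors, lay at 98.005, 98.3 and 99.05 in placebo brain and 6.17, 6.995 and 8.60 in placebo liver, with a difference of 91.4 ± 0.4 points (SE; adjusted p = 2.95e-32). In all of these genes every brain array stood above every liver array.

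The rest of the 12 were Vstm2a (90.7 points), Gabrb2 (90.1), a subunit of GABA-A receptors, Cntn1 (89.96) and Nrcam (89.8), adhesion proteins of axons, Nefl (89.7), the light chain of neurofilaments, and Rab3c (89.6), a GTPase of synaptic vesicles. Their brain arrays lay between 95.6 and 99.4, and no liver array was above 14.1.

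Secreted proteins, transporters and drug-metabolising enzymes made up the largest differences higher in liver. Cyp3a11, a cytochrome P450 that oxidises many drugs and steroids, lay at 0.59, 1.64 and 2.22 in placebo brain and 99.2, 99.5 and 99.6 in placebo liver, a difference of -97.95 ± 0.36 points (SE; adjusted p = 4.12e-33). Ces1c, a carboxylesterase of plasma, differed by -97.9 points. Slco1a1, which takes organic anions up into hepatocytes, differed by -96.6, and Slc22a30, of the organic anion transporter family, by -96.4. Mup3, a major urinary protein, lay at 2.55, 3.12 and 5.44 in placebo brain and 99.8, 99.9 and 99.9 in placebo liver. These 5 genes were near the bottom of every brain array and near the top of every liver array.

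Fabp1, the fatty acid binding protein of liver, differed by -96.2 points, and Cyp2c50 and Cyp2c67, cytochromes P450 of family 2, by -96.1 and -95.5. Apof, an apolipoprotein, differed by -95.8, and Hrg, a histidine-rich plasma protein, by -95.3. Hamp, the gene of the iron hormone hepcidin, reached 1.44, 3.07 and 11.5 in placebo brain and 98.6, 99.6 and 99.8 in placebo liver, with array 1N the highest brain array. Ugt2b5, which joins glucuronic acid to drugs and steroids, differed by -94.9 points. Members of the P450 family 2 and of the Ugt2b and Mup families are close in sequence, and signal shared between their probes was not tested.

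**Figure D2:**
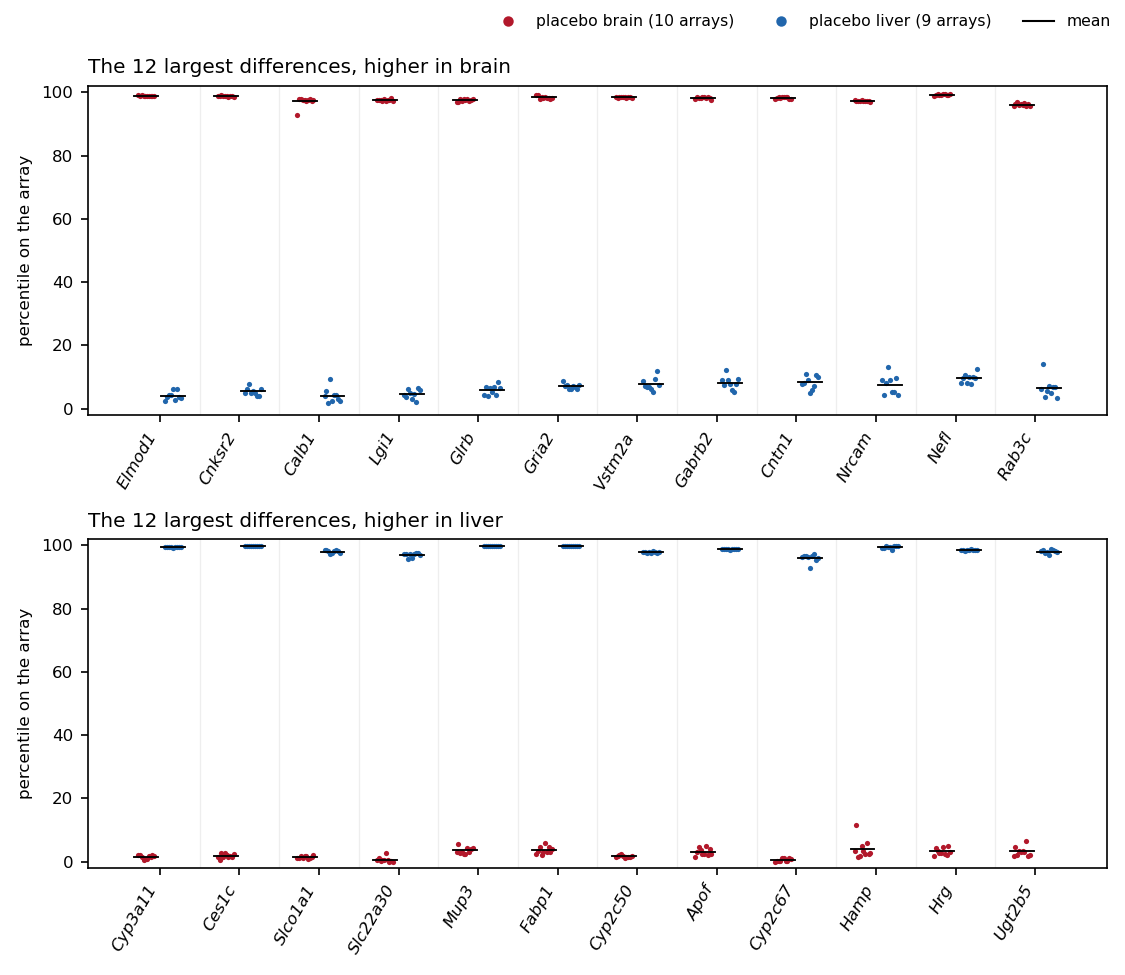
Percentile on each placebo array for the 12 genes with the largest differences higher in brain (upper panel) and the 12 with the largest differences higher in liver (lower panel). Red points are the 10 brain arrays, blue points the 9 liver arrays and black lines the means, and the colours stay apart for every gene.

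A set of 45 gene lists was described by counts, beside the background of 13.5% higher in brain and 11.6% higher in liver. Of 187 measured genes on lists of brain processes and cells, 140 were called higher in brain and 6 higher in liver, with a median difference of 49.4 points. Of 256 measured genes on lists for liver, 5 were called higher in brain and 214 higher in liver, with a median of -61.3 points. Of 175 genes on lists expected in both tissues, 10 were higher in brain and 18 higher in liver, with a median of -4.55 points. The lists were chosen with earlier results of these data known, so these counts are a description.

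**Figure D3:**
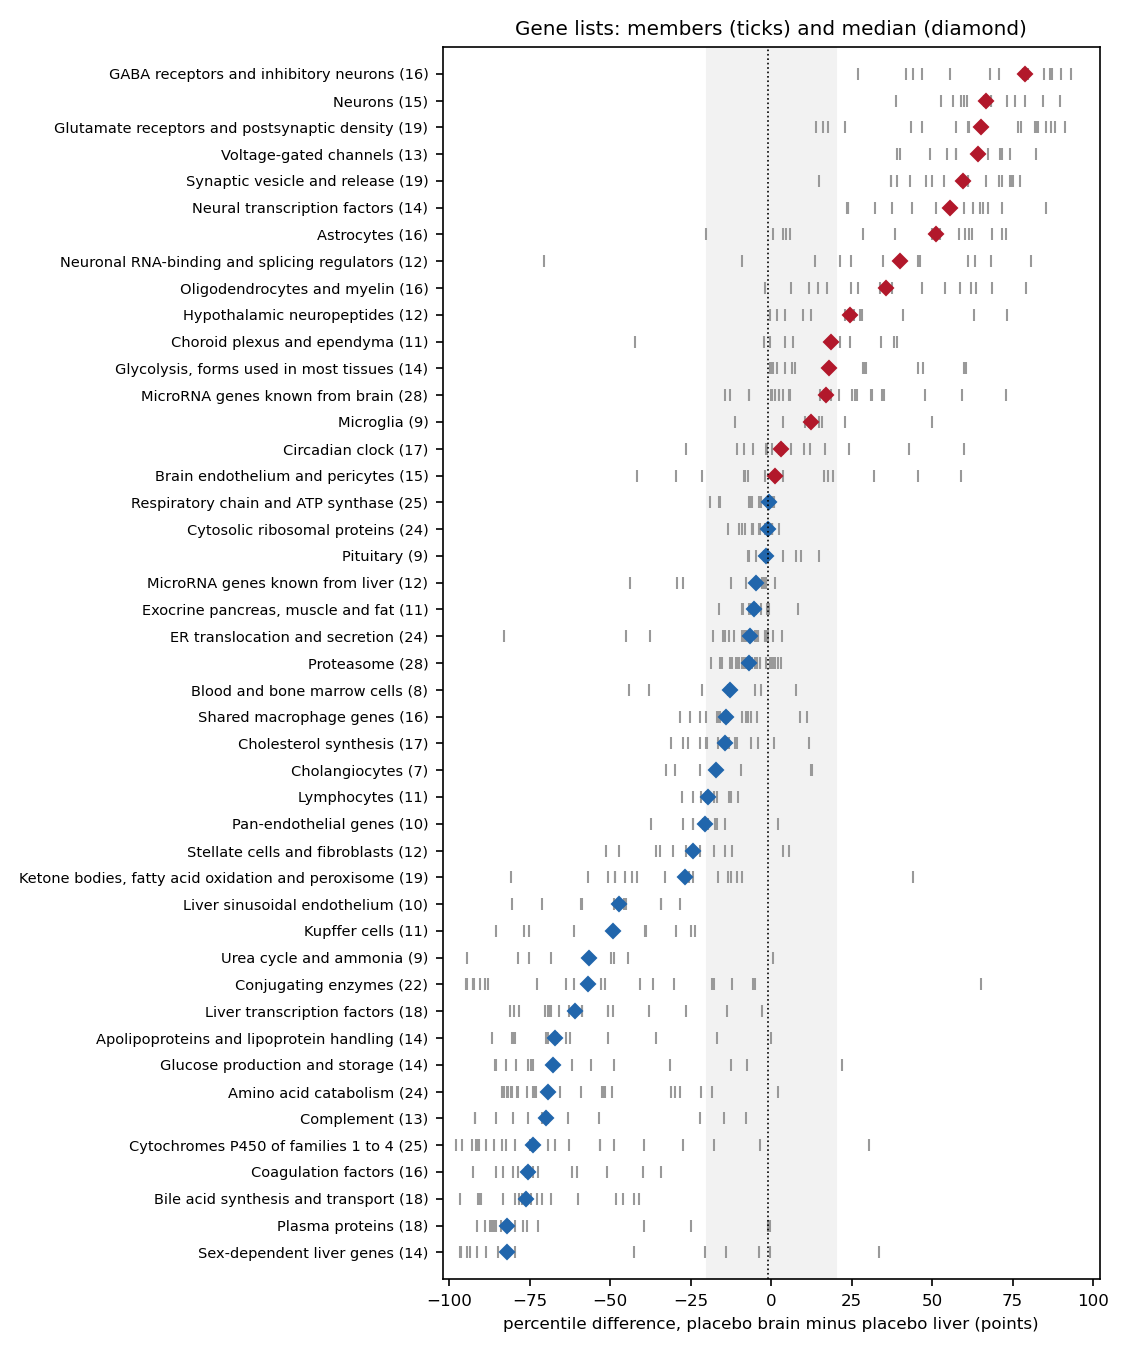
Percentile difference of placebo brain minus placebo liver, in points, for the measured members (grey ticks) and the median (diamond, red above 0 and blue below 0) of 45 gene lists, with the number measured in brackets. The grey band covers differences under 20 points and the dotted line the median over all genes, and list medians run from 78.8 points for GABA receptors and inhibitory neurons to -82.3 for sex-dependent liver genes.

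All 15 neuronal genes measured were called higher in brain, with a median difference of 66.6 points. Syp, an integral protein of synaptic vesicles, averaged 98.02 ± 0.35 in placebo brain and 29.9 ± 3.71 in placebo liver (SD, n = 10 and 9). Rbfox3, the neuronal nuclear antigen NeuN, averaged 96.1 in placebo brain and 29.5 in placebo liver. Stmn2, a microtubule regulator of growing axons, averaged 99.3 in placebo brain and 14.7 in placebo liver. In whole tissue, fewer cells of a type and less RNA per cell cannot be told apart, here or for the cell types that follow.

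Of the 19 genes of synaptic vesicles and release, 18 were called higher in brain, with a median difference of 59.5 points. Syt1, the calcium sensor of release, averaged 99.8 in placebo brain and 62.7 in placebo liver, a difference of 37.1 points. Syn1, which tethers vesicles, differed by 71.6 points, and Stx1a, a fusion protein of the plasma membrane, by 37.2. Vamp2, the vesicle partner of Snap25, was the member below the floor, with 99.6 in placebo brain and 84.9 in placebo liver; its difference was 14.7 points and 3.12 log2 units on the common scale.

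Receptors followed the same order. Of 19 genes of glutamate receptors and the postsynaptic density, 16 were called higher in brain, and the others were Shank2 (16.1 points), Shank3 (17.5) and Dlgap1 (13.9), scaffolds of the postsynaptic density. Dlgap1 differed by 36.1 points, and was called, with the mean of all its probes, and Shank2 and Shank3 by 21.3 and 23.1 points, and were called, with genes low in both tissues left out. Gria1, an AMPA receptor subunit, averaged 98.8 in placebo brain and 15.9 in placebo liver, and Dlg4, the scaffold PSD-95, averaged 98.1 in placebo brain and 40.7 in placebo liver. All 16 genes of GABA receptors and inhibitory neurons were called, with the highest median of any list at 78.8 points. Gad1 and Gad2, the enzymes that make GABA, differed by 67.95 and 78.2 points, and Gabra2, a GABA-A receptor subunit, by 79.9. All 13 voltage-gated channel genes were called, with a median of 64.1 points. Among them Scn8a, a sodium channel of axons, differed by 71.8 points, Kcnc1, a fast potassium channel, by 64.2, and Cacna1a, the P/Q-type calcium channel, by 57.3.

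Families were also counted by gene symbol, over symbols that go on to a number, without a chosen list. The shares over all genes were 13.5% higher in brain and 11.6% higher in liver. Of 11 genes whose symbol starts with Gabr, 9 were called higher in brain and 0 higher in liver. For ionotropic glutamate receptors and their kin (Gri) the counts were 16 and 0 of 19, for calcium channels (Cacn) 18 and 0 of 23, and for potassium channels (Kcn) 53 and 2 of 86. Protocadherins (Pcdh), adhesion proteins of neurons, had 29 higher in brain and 2 higher in liver of 34. Those higher in liver were Pcdh1 and Pcdh12, the second of which is known from endothelium; they were looked up after the counts were seen, and Pcdh1 was not called with ranks over all probes (-19.5 points). Solute carriers (Slc) were divided, 79 higher in brain and 76 higher in liver of 370. Of 990 olfactory receptor genes, which are used mainly in the nose, 2 were called higher in brain and 9 higher in liver.

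Astrocyte genes were mixed. Of 16 astrocyte genes, 11 were called higher in brain and 1 higher in liver. Gfap, the intermediate filament of astrocytes, averaged 86.5 ± 2.34 in placebo brain and 26.5 ± 2.63 in placebo liver (SD, n = 10 and 9), a difference of 60.1 points. Aqp4, the water channel of astrocyte endfeet, differed by 49.9 points and Slc1a3, a glutamate transporter, by 61.6. Slc1a2, the main glutamate transporter of astrocytes, was near the top of both tissues, with 99.5 in placebo brain and 94.8 in placebo liver and 1.74 log2 units on the common scale. Aldh1l1, a folate enzyme used as an astrocyte marker, went the other way, with 72.8, 79.97 and 81.3 in placebo brain and 99.1, 99.2 and 99.5 in placebo liver, a difference of -20.3 points (adjusted p = 3.15e-15). Its arrays did not overlap, but it stood just past the floor of 20 points: the difference was -19.6 without brain array 1L, -19.99 without 1N and -16.9 with ranks over all probes, and it was then not called. Glul, glutamine synthetase, averaged 99.7 in placebo brain and 99.1 in placebo liver, with adjusted p = 0.083 in limma and 0.62 log2 units on the common scale. Every brain array of Glul lay above every liver array, so that p does not show the tissues to be alike. Glul turned to lower in brain, by -1.17 log2 units, when the deposited values were centred on the array median.

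Of 16 oligodendrocyte and myelin genes, 11 were called higher in brain and 0 higher in liver. Mog and Mag, proteins of the myelin sheath, differed by 58.6 and 62.04 points. Mobp, a basic protein of myelin, averaged 96.8 in placebo brain and 17.7 in placebo liver, and Cnp, a phosphodiesterase of myelin, 98.9 in placebo brain and 72.1 in placebo liver. Aspa, which splits N-acetylaspartate, averaged 68.9 in placebo brain and 70.7 in placebo liver, and the arrays of the tissues overlapped.

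All 14 neural transcription factors were called higher in brain, with a median difference of 55.5 points. Neurod1 and Neurod6, factors of neuronal differentiation, differed by 85.5 and 62.7 points, Neurod2 by 37.5 and Sox2, a factor of neural progenitors and glia, by 67.3. Of 12 neuronal RNA-binding and splicing regulators, 9 were called higher in brain, among them Rbfox1 (80.7 points), Nova1 (68.1), Srrm4 (34.6) and Nova2 (24.8). Esrp2, an epithelial splicing regulator placed on that list, was called higher in liver, with 14.4, 17.6 and 20.2 in placebo brain and 85.8, 88.03 and 90.95 in placebo liver and no overlap.

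Neuropeptide precursors were mixed. Penk, the precursor of enkephalins, averaged 99.03 in placebo brain and 25.8 in placebo liver, and Tac1, the precursor of substance P, 74.3 in placebo brain and 11.2 in placebo liver. Avp and Oxt, the precursors of vasopressin and oxytocin, averaged 45.6 in placebo brain and 41.4 in placebo liver for Avp and 46.6 in placebo brain and 46.8 in placebo liver for Oxt, with overlapping arrays. Hcrt, the precursor of orexins, averaged 51.6 in placebo brain and 41.9 in placebo liver, and Cartpt, another hypothalamic precursor, 50.1 in placebo brain and 48.2 in placebo liver. In all 7 of 12 measured peptide genes were called higher in brain.

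Of 11 genes of choroid plexus and ependyma, 5 were called higher in brain and 1 higher in liver. Kcne2 and Otx2, a channel subunit and a transcription factor of choroid plexus, differed by 21.2 and 39.1 points. Folr1, a folate receptor, differed by 18.7 points and was not called. Cldn2, a pore-forming tight junction protein used in choroid plexus and bile canaliculi, averaged 30.6 in placebo brain and 72.9 in placebo liver. Brain array 1L was the lowest of the brain arrays for Kcne2, Otx2, Folr1, Cldn2 and Ttr. Kcne2, Otx2 and Cldn2 were called with and without it. With genes low in both tissues left out, Kcne2 differed by 15.8 points and was not called, and Folr1 by 22.8 and was called. Ttr, the carrier of thyroid hormone secreted by both choroid plexus and liver, was near the top of both tissues. It lay at 97.5, 99.8 and 99.8 in placebo brain and 99.9, 99.9 and 99.9 in placebo liver. The limma adjusted p was 0.38, and the difference was -0.44 log2 units on the common scale. Every brain array of Ttr lay below every liver array, so that p does not show the tissues to be alike.

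The promoter of Gria2 held a match to the core of the RE1 motif, which the repressor REST is known to bind in non-neuronal cells. It is shown because the gene stood among the 12 largest brain differences, and it was chosen after its values were seen. RefSeq places the window, 250 bases before to 50 after the gene's start, at chr3:80802786-80803085 on the minus strand of GRCm38.p6, and the capitals mark the match, 170 to 157 bases before the start on the antisense strand.
Gria2: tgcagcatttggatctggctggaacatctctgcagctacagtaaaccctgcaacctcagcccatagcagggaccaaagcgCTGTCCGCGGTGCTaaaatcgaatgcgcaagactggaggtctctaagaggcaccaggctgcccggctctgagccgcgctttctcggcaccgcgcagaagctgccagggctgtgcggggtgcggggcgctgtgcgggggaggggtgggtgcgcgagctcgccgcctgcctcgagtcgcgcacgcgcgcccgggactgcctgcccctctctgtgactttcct
The motif searched on both strands, a shortened core, was AGCACC, any 2 bases, then GGACAG. It was found in 12 of 14749 promoters of ranked genes (0.0814%), in 10 of 1929 promoters of genes called higher in brain (0.518%) and in 1 of 1702 of genes called higher in liver (0.0588%). Those of brain were Fam163b, Fbll1, Gad2, Gria2, Hrh3, Lca5, Ogdhl, Robo2, Scamp5 and Ttc9b, and the one of liver was Lhx3, all named after their values were seen. Hrh3, the histamine H3 receptor, averaged 70.9 in placebo brain and 14.1 in placebo liver, and Scamp5, a membrane protein of synaptic vesicles, 97.5 in placebo brain and 68.9 in placebo liver.

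Plasma protein genes were nearly all called higher in liver. Of 18 measured, 16 were called higher in liver and 0 higher in brain, with a median difference of -81.97 points. Apoa1, the main protein of high-density lipoprotein, averaged 27.4 in placebo brain and 99.97 in placebo liver, and Fga, a fibrinogen chain, 12.2 in placebo brain and 97.9 in placebo liver. Besides Ttr, the member not called was Trf, the iron carrier transferrin, which oligodendrocytes also make: it averaged 98.9 in placebo brain and 99.96 in placebo liver, -1.39 log2 units on the common scale.

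All 16 coagulation genes were called higher in liver, with a median of -75.5 points. F2, prothrombin, averaged 19.3 ± 2.31 in placebo brain and 99.7 ± 0.022 in placebo liver (SD, n = 10 and 9). F9, the factor IX gene, differed by -92.8 points, F10, factor X, by -74.04, and Plg, plasminogen, by -76.1. Of 13 complement genes, 11 were called higher in liver. C8a and C9, of the membrane attack complex, differed by -80.2 and -91.9 points, and C6 and C8b of the same complex by -85.5 and -75.7. The remaining members, C1qb (-7.88 points) and C1qc (-14.8), are made by macrophages in both tissues.

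Of 14 genes of apolipoproteins and lipoprotein handling, 12 were called higher in liver. Apob, the structural protein of very-low-density lipoprotein, averaged 12.9 in placebo brain and 99.7 in placebo liver, Apoa2 37.4 in placebo brain and 99.97 in placebo liver and Apoc3 29.9 in placebo brain and 99.8 in placebo liver. Apoe, which liver and astrocytes both make, was at the top of both tissues. It lay at 99.9, 99.9 and 99.95 in placebo brain and 99.98, 99.99 and 99.99 in placebo liver. The limma adjusted p was 0.88, and the difference was -0.46 log2 units on the common scale. Every brain array lay below every liver array, so that p does not show the tissues to be alike. With deposited log2 values centred on the array median, Apoe differed by -2.26 log2 units. Lcat, which esterifies cholesterol in plasma, differed by -16.8 points and was not called.

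Nitrogen disposal was called higher in liver at nearly every step measured. Of 9 genes of the urea cycle and ammonia, 8 were called higher in liver, and Glul was the member not called. Cps1, the first enzyme of the cycle, averaged 21.1 in placebo brain and 99.9 in placebo liver. Otc, the second enzyme, averaged 3.55 in placebo brain and 98.02 in placebo liver, and Arg1, which releases urea, 23.998 in placebo brain and 99.2 in placebo liver. Asl, which is used in many tissues, differed less, by -44.6 points. Of 24 genes of amino acid catabolism, 22 were called higher in liver, among them Tat (-81.8 points) and Hpd (-80.8) of tyrosine breakdown, Tdo2 (-78.8) of tryptophan breakdown and Hgd (-79.05). Got1, a transaminase used in most tissues, averaged 99.7 in placebo brain and 97.7 in placebo liver, 1.23 log2 units on the common scale, past the floor of 1 log2 unit used there.

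Of 14 genes of glucose production and storage, 11 were called higher in liver and 1 higher in brain. G6pc, which releases free glucose, averaged 14.04 in placebo brain and 99.4 in placebo liver, and Pck1, which commits carbon to glucose synthesis, 20.4 in placebo brain and 99.6 in placebo liver. Ppargc1a, a coactivator of mitochondrial and gluconeogenic genes, was the exception, with 87.4, 89.8 and 91.7 in placebo brain and 59.9, 68.6 and 73.7 in placebo liver, a difference of 21.9 points. With ranks over all probes it was 16.5 points and not called. Of 19 genes of ketone bodies, fatty acid oxidation and the peroxisome, 13 were called higher in liver and 1 higher in brain. Ehhadh, of peroxisomal oxidation, averaged 40.02 in placebo brain and 96.99 in placebo liver, and Bdh1, which interconverts ketone bodies, 70.2 in placebo brain and 95.9 in placebo liver. With ranks over all probes Bdh1 differed by -19.8 points and was not called. Oxct1, the enzyme that lets tissues burn ketone bodies, went the other way, with 91.7, 92.5 and 93.4 in placebo brain and 46.6, 48.8 and 50.1 in placebo liver. Its arrays did not overlap.

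All 18 genes of bile acid synthesis and transport were called higher in liver, with a median of -76.2 points. Cyp7a1, the rate-limiting enzyme of bile acid synthesis, averaged 4.88 ± 1.36 in placebo brain and 95.8 ± 2.31 in placebo liver (SD, n = 10 and 9). Cyp8b1, which sets the kind of bile acid made, differed by -77.5 points. Slc10a1, which takes bile acids up from blood, differed by -83.3, and Abcb11, which exports them into bile, by -90.8. Cyp7b1 and Cyp27a1, which also act on oxysterols outside the liver, differed less, by -42.6 and -46.1 points.

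Of 25 cytochromes P450 of families 1 to 4, 22 were called higher in liver and 1 higher in brain. Cyp1a2 averaged 8.15 in placebo brain and 99.2 in placebo liver, Cyp2e1, which oxidises ethanol, 13.8 in placebo brain and 99.9 in placebo liver, and Cyp4a14, a fatty acid hydroxylase, 15.98 in placebo brain and 89.9 in placebo liver. Cyp4x1, a P450 known from brain, was the exception, with 54.2 in placebo brain and 23.8 in placebo liver. Over all 92 genes whose symbol starts with Cyp, 2 were higher in brain and 52 higher in liver, and the other brain call was Cyp46a1, the cholesterol 24-hydroxylase of neurons, with 90.4 in placebo brain and 51.8 in placebo liver. Cyp46a1 was looked up after the count was seen.

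Of 22 conjugating enzymes, 16 were called higher in liver and 1 higher in brain. Ugt2b1, a glucuronosyltransferase, averaged 6.31 in placebo brain and 99.1 in placebo liver. Gstm1, a glutathione transferase, was high in both, with 93.9 in placebo brain and 99.6 in placebo liver and -2.003 log2 units on the common scale. Sult4a1, a sulfotransferase of neurons, averaged 95.04 in placebo brain and 29.7 in placebo liver. In the Ugt family 9 of 10 genes were higher in liver, and the 1 higher in brain was Ugt8a, which makes the myelin lipid galactosylceramide, a difference of 63.6 points.

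Of 14 genes whose level in mouse liver is known to depend on sex, 10 were called higher in liver and 1 higher in brain. Mup20 and Mup21, major urinary proteins, differed by -94.4 and -91.5 points, and Cyp2d9 by -79.6. Cux2, a repressor in liver that is also a factor of upper cortical neurons, averaged 69.7 in placebo brain and 36.3 in placebo liver.

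Of 18 liver transcription factors, 16 were called higher in liver, with a median of -60.9 points. Hnf4a, a nuclear receptor that many hepatocyte genes need, averaged 29.3 ± 2.36 in placebo brain and 98.1 ± 0.17 in placebo liver (SD, n = 10 and 9). Foxa1, Foxa2 and Foxa3, forkhead factors of liver, differed by -58.9, -38.1 and -81.2 points. Xbp1 (-2.97 points and -0.60 log2 units on the common scale), a factor of the secretory pathway, and Esrra (-13.7), a factor of mitochondrial genes, were not called.

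Motif letters in promoters are given as a description, and no difference between sets was tested. HNF4 and HNF1 are transcription factors of hepatocytes. The HNF4 letters CAAAGTCCA were in 59 of 14749 promoters (0.4%), in 5 of 1929 of genes called higher in brain (0.259%) and in 18 of 1702 of genes called higher in liver (1.06%). Among genes that differed by at least 70 points, the share was 0.633% of 158 in brain and 4.17% of 192 in liver. The HNF1 letters GTTAAT were in 5.99% of all promoters, 4.51% of the brain calls and 7.4% of the liver calls, and in 5.06% and 24.5% of the brain and liver sets of at least 70 points. TATA boxes, TATAAA, were in 12.3% of all, 7.78% of the brain calls and 12.9% of the liver calls, and in 6.96% and 27.6% of the 70-point brain and liver sets. GC boxes, GGGCGG, were in 50.2% of all, 57.9% of the brain calls and 50.8% of the liver calls, and in 48.7% and 8.85% of the 70-point brain and liver sets. Median CpG counts per 300 bases were 15 over all promoters, 18 in the brain calls and 12 in the liver calls, and 17 and 3 in the 70-point brain and liver sets. Median GC content was 57.7% over all promoters, 61.7% in the brain calls and 56.7% in the liver calls. In the 70-point brain and liver sets it was 61.2% and 47%. The shares of the liver calls thus lay near those of all promoters for the HNF1, TATA and GC letters, and far from them in the 70-point liver set. The part of base composition in the shares of any motif was not tested. C/EBP factors are known from liver too: the letters TTGCGCAA were in 0.231% of all promoters, 0.363% of the brain calls and 0.235% of the liver calls, and in 0 of 158 and 1 of 192 promoters of the 70-point brain and liver sets. The cAMP response element, TGACGTCA, was in 2.54% of all, 2.85% of the brain calls and 1.41% of the liver calls, and in 3.8% of the 70-point brain set and 0 of 192 promoters of the liver set. All motifs were searched on both strands in the first window RefSeq lists for a symbol, and a match is not a bound site.

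A pair of liver promoters is shown because the first belongs to the largest liver difference and the second to the liver marker, chosen after their values were seen. The Cyp3a11 window is chr5:145879805-145880104 on the minus strand of GRCm38.p6, with the HNF4 letters in capitals, 109 to 101 bases before the start, and the Alb window is chr5:90460620-90460919 on the plus strand, with the HNF1 letters in capitals, 32 to 27 bases before the start. Both matches are on the sense strand, and the windows hold 2 and 3 CpGs, against 26 in the Gria2 window.
Cyp3a11: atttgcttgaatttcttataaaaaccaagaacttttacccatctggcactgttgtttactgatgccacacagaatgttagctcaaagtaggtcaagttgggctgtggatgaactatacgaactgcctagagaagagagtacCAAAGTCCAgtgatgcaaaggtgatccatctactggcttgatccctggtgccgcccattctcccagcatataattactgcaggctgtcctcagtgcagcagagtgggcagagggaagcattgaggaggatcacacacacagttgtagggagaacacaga
Alb: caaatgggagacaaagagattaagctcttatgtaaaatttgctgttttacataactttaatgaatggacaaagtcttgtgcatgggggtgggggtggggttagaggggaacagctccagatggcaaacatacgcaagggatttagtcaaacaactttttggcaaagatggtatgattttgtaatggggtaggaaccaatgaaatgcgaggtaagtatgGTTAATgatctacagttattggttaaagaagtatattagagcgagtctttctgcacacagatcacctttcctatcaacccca

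Genomic spans are given as a description. The median genomic span in RefSeq was 45.2 kb for genes called higher in brain and 17.7 kb for genes called higher in liver, beside 16.2 kb for genes not called. Spans over 100 kb made up 31.6% of the brain calls, 8.19% of the liver calls and 8.94% of the rest. Among the 100 largest differences the medians were 158.5 kb in brain and 17.8 kb in liver. The part of span in the percentiles was not tested.

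Some sister forms of the same enzyme, transporter or other kind of protein were divided between the tissues. Of 23 such pairs, 15 had both forms measured, and in 7 the form known from other tissues was called higher in brain and the liver form higher in liver. The pairs were chosen with earlier results of these data known, so these counts are a description. Pkm, pyruvate kinase M, averaged 99.6 in placebo brain and 70.3 in placebo liver, and Pklr, the liver and red cell form, 21.8 in placebo brain and 97.6 in placebo liver. Pygb and Pygl, glycogen phosphorylases, differed by 40.5 and -61.9 points. Slc2a3, the neuronal glucose transporter, differed by 54.96 points and Slc2a2, that of hepatocytes, by -74.03. Cpt1c and Cpt1a, carnitine palmitoyltransferases, differed by 51.7 and -25.5 points, and Fabp7, the fatty acid binding protein of glia, by 36.2, against -96.2 for Fabp1. For Sult4a1 and Sult1a1 the differences were 65.3 and -51.8 points, and for the connexins Gja1 and Gjb1, 38.5 and -52.1.

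In 3 pairs the liver form alone was called: Gys2 (-85.7 points, against 8.49 for Gys1), Fbp1 (-82.4, against -11.7 for Fbp2) and Pck1 (-79.2, against 4.20 for Pck2). In 4 pairs it was the other form alone: Atp1b2 (58.3 points, against 6.38 for Atp1b1), Pfkp (47.03, against 7.43 for Pfkl), Ptbp2 (21.5, against -8.95 for Ptbp1) and Elavl4 (68.2, against -0.21 for Elavl1). The second gene of each of these pairs was the form set against the first and need not be particular to liver. With ranks over all probes Ptbp2 differed by 16.4 points and was not called. Atp1b1, a sodium pump subunit, was near the top in both tissues and differed by 2.72 log2 units on the common scale. In the last pair, Gpd1l and Gpd1, neither form was called, at 5.78 and -6.74 points, but Gpd1 differed by -1.52 log2 units on the common scale, past the floor there. Elavl1, also above 90 in both tissues, differed by -0.02 log2 units.

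Hexokinase 1 (Hk1), neuron-type enolase (Eno2) and aldolase C (Aldoc) were called higher in brain, by 45.7, 60.02 and 28.4 points. The forms paired with them were not analysed here. Of 14 genes of glycolysis in forms used by most tissues, 7 were higher in brain and 0 higher in liver. Ldhb, the lactate dehydrogenase subunit of oxidative tissues, averaged 98.7 in placebo brain and 38.2 in placebo liver, whereas Ldha averaged 98.6 in placebo brain and 98.9 in placebo liver, -0.19 log2 units on the common scale.

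Markers of the resident macrophages of each tissue gave unlike counts. All 11 Kupffer cell genes were called higher in liver, with a median difference of -49.2 points, whereas 2 of 9 microglial genes were called higher in brain, with a median of 12.4. On the common log2 scale with a floor of 1 log2 unit, all 11 Kupffer cell genes and 5 of 9 microglial genes were called toward their own tissue. The difference between the lists was not tested. Clec4f, a lectin of Kupffer cells, lay at 22.9, 31.2 and 35.1 in placebo brain and 90.7, 91.8 and 93.97 in placebo liver, and Vsig4, a complement receptor, at 4.75, 5.63 and 8.67 in placebo brain and 74.1, 82.4 and 88.2 in placebo liver. Neither gene overlapped between tissues. Cd5l, secreted by macrophages, differed by -75.2 points and Timd4, a receptor for dying cells, by -39.4.

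The microglial genes called were Fcrls (50.1 points) and Gpr34 (23.01). P2ry12, the purine receptor that defines resting microglia, averaged 45.1 in placebo brain and 41.4 in placebo liver, with overlapping arrays. Tmem119, a membrane protein of microglia, differed by 10.5 points and Cx3cr1, the fractalkine receptor, by 14.8, both apart but under the floor of 20 points. Cx3cr1 was called at 1.29 log2 units on the common scale. Sall1, a factor of microglial identity, averaged 48.6 in placebo brain and 59.9 in placebo liver, with overlapping arrays. Of 16 genes shared by macrophages of both tissues, 0 were called higher in brain and 4 higher in liver: C1qa (-22.1 points), Adgre1 (-28.4), the antigen F4/80, Ptprc (-25.1), the antigen CD45, and Spi1 (-20.2), the factor PU.1. With ranks over all probes C1qa differed by -16.5 points and was not called. With brain array 1L or 3L or liver array 1L, 1T, 3N or 4R left out, Spi1 differed by -19.94 to -19.43 points and was not called. Trem2 (11.2 points) and Itgam (8.94) had the highest differences toward brain and were not called. Csf1r, the receptor macrophages need to survive, differed by -6.42 points, Tyrobp, a signalling adaptor, by -9.13, and Aif1, the antigen Iba1, by -16.2.

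**Figure D4:**
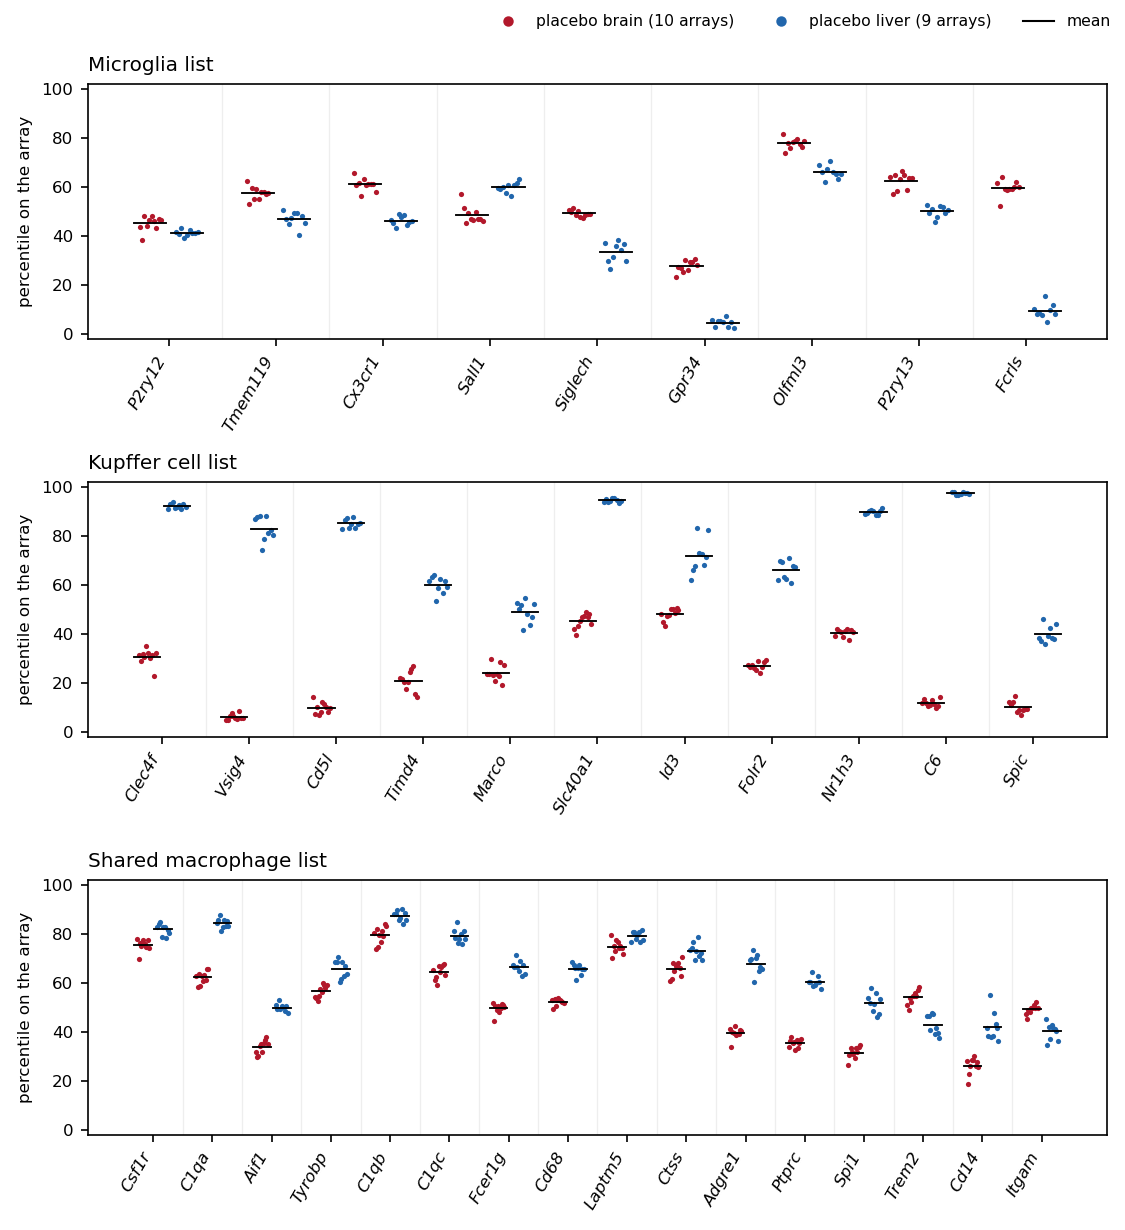
Percentile on each placebo array for the measured genes of the microglia list (top), the Kupffer cell list (middle) and the list of genes shared by macrophages (bottom), with the 10 brain arrays in red, the 9 liver arrays in blue and means as black lines. Kupffer cell genes stand far apart between the tissues, and microglial genes are closer, Sall1 being higher in liver on average.

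Endothelial genes were mixed for brain vessels and all called for liver sinusoids. All 10 genes of liver sinusoidal endothelium were called higher in liver, among them the scavenger receptors Stab2 (-58.9 points) and Stab1 (-34.2), Clec4g (-71.3) and Lyve1 (-34.4). Of 15 genes of brain endothelium and pericytes, 3 were called higher in brain and 3 higher in liver. Those of brain were the transporters Slco1c1 (59.05 points) and Slc7a5 (31.9) and the membrane protein Itm2a (45.6). Those of liver were the tight junction protein Ocln (-21.6 points), the forkhead factor Foxq1 (-41.8) and the potassium channel subunit Abcc9 (-29.6). Without both 1L arrays Ocln differed by -19.8 points and was not called, nor was it with ranks over all probes (-17.2 points). Slc2a1, the glucose transporter of the blood-brain barrier, averaged 97.98 in placebo brain and 78.7 in placebo liver, 19.3 points apart. Abcb1a, a drug exporter, differed by 16.3 points, and Slco1a4 averaged 75.6 in placebo brain and 83.7 in placebo liver. On the common log2 scale with a floor of 1 log2 unit, 6 of the 15 were called higher in brain and 3 higher in liver. Slc2a1 (2.58 log2 units) and Abcb1a (1.22) were among those of brain there. Of 10 genes used by endothelium at large, 5 were called higher in liver and 0 higher in brain. Kdr, a VEGF receptor, was at -37.5 points, Cdh5, the cadherin of endothelial junctions, at -27.5, Pecam1 at -17.5 and Tek at -14.4. On the common log2 scale 9 of these 10 were called higher in liver and 0 higher in brain.

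Of 12 genes of stellate cells and fibroblasts, 7 were called higher in liver, including Lrat, which stores vitamin A (-51.4 points). Reln and Dcn, which neurons or meninges also make, averaged 93.3 in placebo brain and 87.7 in placebo liver for Reln and 82.9 in placebo brain and 97.3 in placebo liver for Dcn. Of 7 bile duct genes, 3 were called higher in liver, Krt19 (-29.9 points), Epcam (-21.99) and Tff3 (-32.7). With genes low in both tissues left out, Epcam differed by -14.1 points and was not called. Of 8 genes of blood and bone marrow cells, 3 were called higher in liver, Alas2 (-44.1 points), S100a9 (-21.7) and Lcn2 (-38.02), and of 11 lymphocyte genes, 4, including Cd3e (-24.2). The share of blood left in the tissues was not tested. Of 11 genes of exocrine pancreas, muscle and fat, 0 were called in either direction. Their differences ran from -16.3 to 8.16 points, so no test with the floor of 20 points could call them. Unadjusted p in limma was under 0.05 for 9 of the 11. Prss2 was at 11.3 in placebo brain and 20.03 in placebo liver, and Acta1 at 41.2 in placebo brain and 42.4 in placebo liver.

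Shared machinery stood near the top of both tissues, where a difference of 20 points can hardly be reached. None of 24 cytosolic ribosomal protein genes, 28 proteasome genes and 25 genes of the respiratory chain and ATP synthase was called at 20 points, whereas 25.1% of all genes were. Their differences ran from -13.5 to 2.42, from -18.7 to 3.15 and from -18.9 to 0.94 points. No test with that floor, limma or exact Wilcoxon rank sum, could therefore call any of them. Unadjusted p was under 0.05 in limma for 13, 25 and 14 of them. On the common log2 scale with a floor of 1 log2 unit, 1 ribosomal gene was called higher in brain, Rpl3 (1.01 log2 units), and 5 higher in liver, Rpl4 (-1.26), Rpl7 (-1.21), Rpl24 (-1.60), Rps9 (-1.54) and Rps18 (-1.14), named after their values were seen. With the mean of all its probes Rps9 differed by -22.9 points and was called. Of the proteasome genes 0 were called higher in brain and 8 higher in liver on that scale, and of the respiratory genes 0 higher in brain and 6 higher in liver, with Uqcrfs1, of complex III, at -1.74 log2 units. The median differences of the ribosomal, proteasome and respiratory lists were -1.004, -6.90 and -0.68 points. Rps6, a protein of the small ribosomal subunit, averaged 99.9 in placebo brain and 99.7 in placebo liver, 0.33 log2 units on the common scale. Psmd1, of the regulatory particle of the proteasome, averaged 96.8 in placebo brain and 96.5 in placebo liver, 0.10 log2 units on that scale, and Sdha, of respiratory complex II, 98.9 in placebo brain and 98.9 in placebo liver, 0.02 log2 units. These small differences have no fixed direction, because Rps6, Psmd1 and Sdha turned to lower in brain, past 1 log2 unit, when the deposited log2 values were centred on the array median. The proteasome genes with the lowest differences were Psma5 (-18.7 points) and Psma2 (-16.1), both under the floor. They were called at -24.8 and -21.3 points with genes low in both tissues left out, and at -1.54 and -1.26 log2 units on the common scale.

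Of 24 genes of the endoplasmic reticulum and secretion, 0 were called higher in brain and 3 higher in liver. Over all genes the shares were 13.5% and 11.6%, so the liver count was near the share over all genes. Mia2, which helps load bulky cargo such as lipoproteins, lay at 6.91, 11.2 and 17.4 in placebo brain and 93.9, 94.8 and 95.7 in placebo liver, with no overlap. Sec61b, of the translocation pore, differed by -45.2 points and Sec24d, of the COPII coat, by -37.8. Hspa5, the chaperone BiP, averaged 97.5 in placebo brain and 99.3 in placebo liver, -0.85 log2 units on the common scale. Of 17 genes of cholesterol synthesis, 5 were called higher in liver and 0 higher in brain, among them Ebp (-31.1 points), Dhcr7 (-27.3) and Fdps (-26.003).

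Of 17 clock genes, 3 were called higher in brain, Rorb (59.9 points), Npas2 (42.9) and Bhlhe41 (24.2), and 1 higher in liver, Nfil3 (-26.5). These counts are not far from the shares over all genes, 13.5% higher in brain and 11.6% higher in liver. Arntl, the core activator, averaged 66.8 in placebo brain and 60.7 in placebo liver and Per1, a core repressor, 83.1 in placebo brain and 70.9 in placebo liver, and both overlapped between tissues. The hour of dissection is not given in the sources used here.

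MicroRNA genes gave 1 block of brain calls. MicroRNAs are short RNAs that pair with messenger RNAs through their seed, bases 2 to 8. The probes can read the precursor or host transcript, and how far they read mature RNA was not tested. The calls are therefore not levels of mature RNA. Mature sequences from RefSeq (GRCm38.p6) are shown for the brain-called genes that share a seed, all arms with a shared seed included, with the seed in capitals.
miR-9-5p: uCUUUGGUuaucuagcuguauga
miR-9-3p: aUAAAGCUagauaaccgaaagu
miR-379-3p: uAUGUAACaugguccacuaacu
miR-411-3p: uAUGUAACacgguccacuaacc
miR-376b-5p: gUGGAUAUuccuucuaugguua
miR-376c-5p: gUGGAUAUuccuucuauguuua
The miR-9 arms come from both Mir9-1 on chromosome 3 and Mir9-2 on chromosome 13, and the others from chromosome 12, where the pairs share the seeds AUGUAAC and UGGAUAU.

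Of 264 ranked genes with a RefSeq hairpin, 50 were called higher in brain and 8 higher in liver. Between Dlk1 and Dio3 on chromosome 12, a region imprinted in mouse, 30 of 35 (85.7%) were called higher in brain and 0 higher in liver, with a median difference of 40.5 points. Among the other 229, 20 (8.73%) were higher in brain and 8 higher in liver, both under the shares over all genes of 13.5% and 11.6%. Neighbours of the region can come from 1 transcript, so they are not independent. Mir382, Mir329 and Mir376b of the region differed by 67.2, 67.1 and 61.3 points, Mir376c by 35.8, Mir379 by 47.9 and Mir411 by 45.4. With genes low in both tissues left out, Mir376c differed by 15.4 points and was not called. Mir9-2, known from neural progenitors, lay at 71.9, 74.5 and 81.1 in placebo brain and 0.56, 1.98 and 2.64 in placebo liver, and Mir9-1 at 58.8, 67.6 and 75.3 in placebo brain and 3.30, 6.53 and 13.1 in placebo liver. Neither overlapped. The copies of the neuronal microRNA-124, Mir124a-1, Mir124a-2 and Mir124a-3, differed by 17.3, 5.95 and 17.3 points and were low in both tissues. In all 11 of 28 microRNA genes known from brain were called higher in brain.

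Of 12 microRNA genes known from liver, 3 were called higher in liver. Mir101b differed by -43.9 points and Mir192 by -27.5. With genes low in both tissues left out, Mir192 differed by -18.97 points and was not called. Mir122, the most abundant microRNA of hepatocytes, lay at 8.06, 13.7 and 23.1 in placebo brain and 19.01, 43.1 and 67.2 in placebo liver, and the arrays overlapped although the difference of -29.2 points was called (adjusted p = 1.19e-06). Mir194-1 averaged 35.5 in placebo brain and 34.3 in placebo liver.

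Within a tissue, placebo arrays were alike, with a median SD over genes of 1.82 points in brain and 2.30 in liver. Liver had the larger SD for 12288 of 18820 genes (65.3%). An SD of at least 5 points was found for 166 genes in brain and 905 in liver, and the brain count was 73 without array 1L.

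The largest SDs in brain belonged to pituitary hormones. Gh, growth hormone, was at 98.9 on brain array 1L and 66.7 on 2R, and at 24.8 to 39.5 on the other brain arrays, beside 34.8, 35.7 and 41.8 (lowest, median and highest array) in placebo liver. Prl, prolactin, was at 78.7 on 1L and 12.1 to 27.8 on the others. Of 9 measured pituitary genes, 5 were higher on 1L than on every other brain array, and the list's mean percentile was 41.0 on 1L, 21.2 to 28.7 on the other brain arrays and 22.8 to 26.1 on liver arrays. Pomc was at 32.4 and Lhb at 29.4 on 1L, both within the range of the other brain arrays. None of the 9 was called between tissues. Their differences ran from -7.34 to 14.9 points, so no test with the floor of 20 points could call them. Of the 9, 6 had an unadjusted p under 0.05 in limma. There Gh had adjusted p = 0.67 and Cga, the shared hormone subunit, differed by 9.37 points. Array 1L was lowest for Arhgef33, Slc6a5, a glycine transporter of hindbrain neurons, Fat2, a cadherin of cerebellar granule cells, and Il16, at 53.6, 48.6, 55.5 and 53.3, against medians over all brain arrays of 81.6, 73.6, 80.5 and 76.8. It was highest for Inhba, Frmd7, Cpa6 and Fosb, at 77.2, 74.1, 72.0 and 79.8, against medians of 53.0, 49.4, 46.4 and 60.3. Which regions the dissection of 1L held was not tested. Arhgef33, Slc6a5, Fat2, Il16, Frmd7 and Cpa6 were called higher in brain. Fosb, an activity-induced transcription factor, was 19.9 points higher in brain and not called. It was 17.9 without brain array 1L and 20.06 to 21.02, and called, without any one of brain arrays 2B, 2R, 3L, 3N, 3T, 4B and 4R or of liver arrays 1T, 3T, 4B and 4R.

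The largest SDs in liver had other patterns. Moxd1, a monooxygenase-like protein, had an SD of 24.98 points in liver and 1.66 in brain: 5 liver arrays lay at 78.2 to 94.2 and 4 at 34.1 to 44.4. Gadd45g, a stress-response gene, spanned 50.9, 86.7 and 94.6 and Myc, a growth factor-induced transcription factor, 55.6, 79.9 and 95.9 in placebo liver. Ciart, a repressor of the clock, spanned 46.03, 75.2 and 89.3, and Rgs16, an inhibitor of G protein signals, 46.02, 67.9 and 86.8. Mir122, Zfp931 and Lrtm1 followed with SDs of 13.4, 13.3 and 12.6 points. Scgb1a1 and Sftpc, secreted proteins of lung airways and alveoli, were at 57.3 and 58.7 on liver array 1L and at no more than 12.2 and 13.4 on every other liver array. Moxd1 (-21.6 points) and Gadd45g (-29.6) were called higher in liver although their arrays overlapped. With all arrays in, Moxd1 was not called by the exact Wilcoxon rank sum test (adjusted p = 0.38) or by limma treat against 10 points (adjusted p = 0.15), nor with ranks over all probes (-15.5 points). With liver array 1L, 3L, 3N or 4B left out, Moxd1 differed by -19.7 to -18.04 points and was not called.

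**Figure D5:**
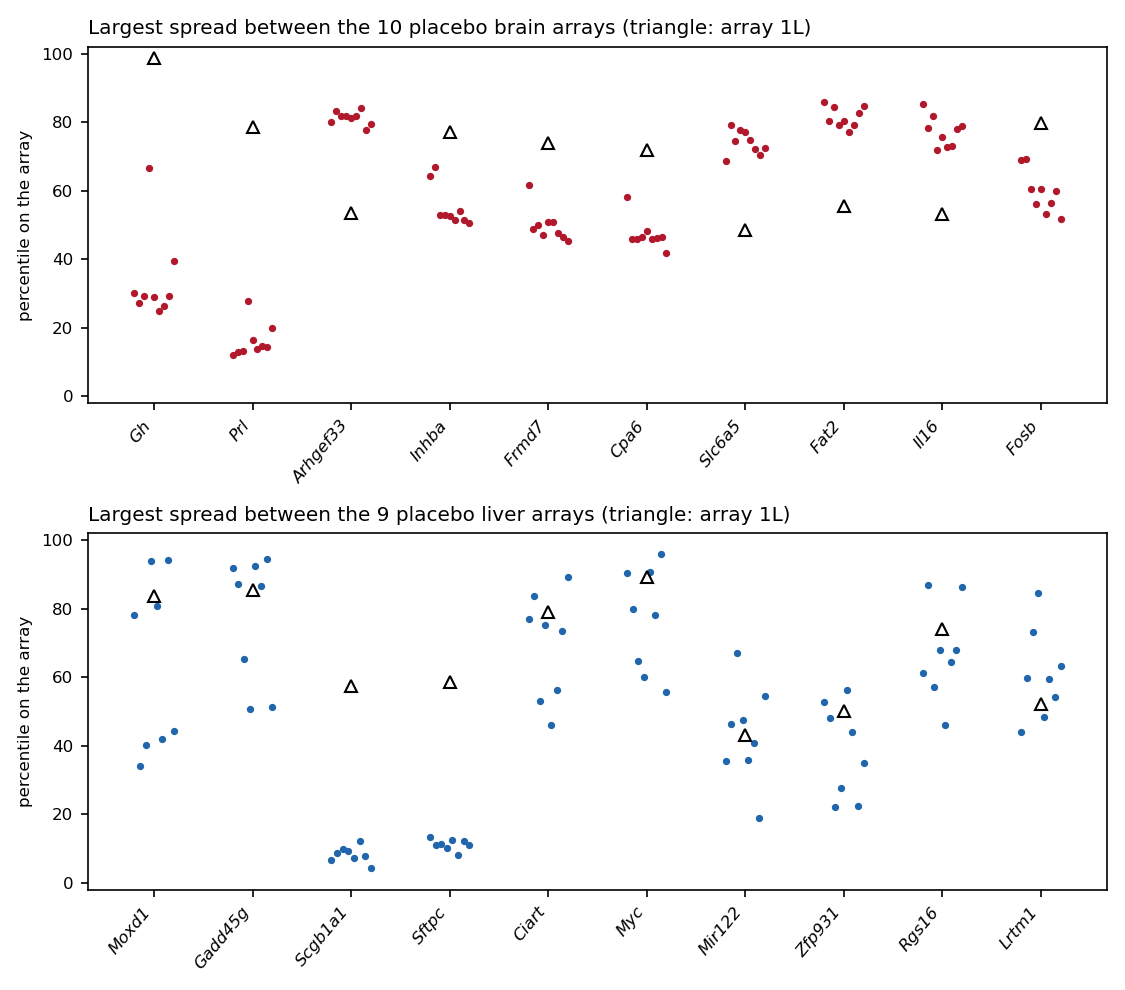
Percentile on each placebo array for the 10 genes with the largest SD between brain arrays (upper panel, red) and the 10 with the largest SD between liver arrays (lower panel, blue), with array 1L drawn as an open triangle. Brain array 1L lies outside the other brain arrays for all 10 genes of the upper panel, and liver array 1L does so for Scgb1a1 and Sftpc in the lower one.

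The tissue comparison was repeated on the haloperidol arrays, other mice that the placebo comparison did not use. There 2542 genes (13.5%) were called higher in brain and 2096 (11.1%) higher in liver. Of the 2534 placebo calls in brain, 2380 (93.9%) were called there too, and of the 2190 in liver, 1934 (88.3%), with 0 called the other way. For Elmod1 the difference was 94.1 points between haloperidol brain and liver, beside 94.9 between placebo brain and liver, and for Cyp3a11 -94.6 beside -97.95. Aldh1l1 differed by -19.4 points in haloperidol mice, Esrp2 by -70.1, Oxct1 by 46.8 and Ppargc1a by 20.5, each with the sign it had in placebo mice. Moxd1 differed by -2.99 points there and Gadd45g by -13.1.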

How the data were processed

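Total RNA of whole brain and liver was measured on Affymetrix arrays, 1 array per mouse and tissue. The deposited values are log2 intensities; the submitters' processing notes name RMA and Affymetrix Expression Console as the authors' tools. RMA corrects the background, brings arrays to 1 distribution and summarises probe sets; the medians of the values show that brain and liver were on different distributions, so values were not compared across tissues as deposited. The table held 35556 probes and 0 missing values, and no column of it was left unused. In the platform annotation 21218 probes had 1 gene symbol, 1881 several and 12457 none; genes without a probe of 1 symbol were not analysed here. For each of 18820 genes the probe of highest mean over all 38 arrays was kept, and 18790 of the genes were found by Entrez ID in the RefSeq table. The annotation's symbols were kept and can be old.

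Each array was turned into percentiles over those genes. The percentiles of the 10 placebo brain and 9 placebo liver arrays were compared with limma 3.58.1 (lmFit and eBayes, two-sided) in R 4.3.3, with Benjamini-Hochberg adjustment over all genes, and a gene was called at an adjusted p under 0.05 and a difference of at least 20 points. Adjusted p-values in the text come from that fit. The haloperidol arrays were fitted alone in the same way. For the common log2 scale the 19 placebo arrays were quantile-normalized to 1 distribution. Tables and figures used Python 3.11.15, pandas 2.3.3, scipy 1.17.1 and matplotlib 3.10.9. The limma fit was also run on simulated data with known changes, scored by adjusted p alone and with a size floor lower than 20 points. Only genes in the middle of the percentile scale were changed, so the run does not cover the exact calling rule or the ends of the scale.

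The members, the 45 lists (793 genes, 688 measured) and the pairs of sister forms were chosen with earlier results of these data known. Genes were named by rule: the 12 largest called differences each way, the first 4 measured members of each list and every member called against the tissue of its list, both forms of each pair, the 10 genes of largest SD in each tissue and, from lists of both tissues, the 2 largest differences each way. Further members were named as examples after their values were seen. Alternatives covered the scale, the probe per gene, the genes ranked, a filter on low genes, the test, the size floor, the title tag as a block, all 38 arrays in 1 fit and each array left out. The arrays' number limits the precision. The sources used here give no array batches or hybridisation dates.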

Additional observations from a re-analysis of the deposited data

Results flagged for a closer look

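The percentile of every gene named in the report was looked at within the 10 placebo brain arrays and within the 9 placebo liver arrays. A value is given here when its gap to the nearest other array, divided by the range of all arrays of the tissue, was above Dixon's 95% critical value. Of 594 sets of arrays, 83 held such a value, 56 in brain and 27 in liver. For normal values in sets not picked by their spread, chance marks about 1 in 20. Some genes here were named for a large SD or after their values were seen, so that rate is no baseline for the count. Brain array 1L held 34 of them and brain array 1N 12. The median over all arrays of the tissue stands in brackets, and no cause was tested.

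On brain array 1L several groups of genes stood low. Genes of choroid plexus were Ttr at 97.5 (median 99.8), Kcne2 at 30.2 (median 40.3), Folr1 at 39.9 (median 51.6), Otx2 at 39.8 (median 54.6) and Cldn2 at 18.4 (median 31.6). Genes of endothelium were Abcb1a at 59.7 (median 71.5), Slco1a4 at 62.9 (median 75.5), Ocln at 40.2 (median 51.1) and Pecam1 at 46.3 (median 51.6). Genes of the cerebellum and hindbrain, or found there among other places, were Fat2 at 55.5 (median 80.5), Neurod1 at 68.6 (median 91.96), Calb1 at 92.7 (median 97.6) and Slc6a5 at 48.6 (median 73.6). Genes of astrocytes and myelin were Aqp4 at 83.6 (median 91.6), Aldoc at 99.84 (median 99.95), Atp1b2 at 97.9 (median 98.8) and Mobp at 93.7 (median 97.05). The rest were Arhgef33 at 53.6 (median 81.6), Gstm1 at 90.8 (median 94.1), Gys1 at 56.2 (median 59.6), Hcrt at 43.2 (median 52.1), Il16 at 53.3 (median 76.8), Rps6ka6 at 35.9 (median 41.05) and Stmn2 at 98.9 (median 99.4).

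On the same array other genes stood high. Pituitary hormones were Prl at 78.7 (median 14.7) and Cga at 52.6 (median 31.7), and neuropeptide precursors were Tac1 at 86.8 (median 73.9), Penk at 99.7 (median 98.98) and Cartpt at 58.4 (median 49.1). The rest were Cd3e at 23.4 (median 17.2), Fam163b at 89.2 (median 82.5), Krt19 at 24.3 (median 16.9), Mir9-2 at 81.1 (median 74.5) and Stab1 at 54.9 (median 48.1).

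On brain array 1N macrophage genes stood low, with Adgre1 at 34.01 (median 39.8), Csf1r at 69.5 (median 75.7), Fcrls at 52.1 (median 59.6) and P2ry12 at 38.3 (median 46.3). Neuronal genes low on it were Eno2 at 98.98 (median 99.4), Syp at 97.2 (median 97.95), Sult4a1 at 90.7 (median 95.3) and Ttc9b at 70.5 (median 78.8), and the others were Bdh1 at 65.3 (median 70.6), Fabp7 at 97.1 (median 98.8) and Fdps at 63.9 (median 70.3). It was high for Hamp at 11.5 (median 3.07).

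The other brain arrays held few such values. Array 1T was the highest brain array for Ugt2b1 at 10.03 (median 6.19). Array 3L was the highest brain array for Slc22a30 at 2.60 (median 0.44). Array 3T was the highest brain array for Sec24d at 55.1 (median 50.8). Array 3T was the lowest brain array for Moxd1 at 40.4 (median 44.1). Array 4B was the highest brain array for Esrra at 60.7 (median 55.2) and G6pc at 19.6 (median 13.8). Array 4B was the lowest brain array for Clec4f at 22.9 (median 31.2). Array 4R was the highest brain array for Cyp1a2 at 12.5 (median 7.83) and Cyp27a1 at 58.4 (median 52.4). Array 4R was the lowest brain array for Mir376c at 29.6 (median 36.8).

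Liver array 1L was the highest for the lung genes Scgb1a1 at 57.3 (median 8.70) and Sftpc at 58.7 (median 11.4) and for Gria2 at 8.60 (median 6.995), Lyve1 at 77.5 (median 66.6) and Scn8a at 29.6 (median 23.1). Array 1N was the highest for Rab3c at 14.1 (median 6.18). Array 1N was lowest of the liver arrays for Apoa2 at 99.97 (median 99.98). Array 1T was lowest of the liver arrays for Slc7a5 at 54.3 (median 59.4). Array 2B was the highest for Calb1 at 9.49 (median 3.91). Liver array 3L was the highest for Gria1 at 27.9 (median 13.7) and Mir376b at 9.71 (median 3.15). Liver array 3L was lowest of the liver arrays for Apof at 98.6 (median 98.96), Cyp2c67 at 92.96 (median 96.3), Cyp3a11 at 99.2 (median 99.5) and Rpl24 at 95.8 (median 97.2). Array 3N was the highest for Gabra2 at 6.96 (median 3.10). Array 3T was lowest of the liver arrays for Atp1b1 at 92.2 (median 93.6). Liver array 4B was the highest for Lhx3 at 47.3 (median 43.3) and Mir376c at 0.35 (median 0.14). Liver array 4B was lowest of the liver arrays for Apoe at 99.98 (median 99.99), Ldha at 98.6 (median 98.98), Pcdh1 at 55.6 (median 60.3), Pfkl at 76.2 (median 79.3) and Rps6ka5 at 36.96 (median 46.6). Array 4R was the highest for Gys1 at 54.1 (median 50.5). Array 4R was lowest of the liver arrays for Atp1b2 at 32.95 (median 40.96) and Rpl7 at 95.2 (median 96.2). Several of these lie at the ends of the percentile scale, where the range between arrays was under 1 point.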

How the results depend on the processing

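Placebo calls numbered 2534 in brain and 2190 in liver as reported. They were 3808 and 3990 on a common log2 distribution with a floor of 1 log2 unit, 3063 and 6298 with the deposited log2 values centred on the array median, 7198 and 8796 with no size floor and 1172 and 760 with a floor of 40 points. The counts with no floor and with 40 points follow from the floor itself; for the log2 scales the cause was not tested. Calls were 2793 and 2791 with genes low in both tissues left out of the ranking, 2551 and 1833 with ranks over all probes, 2534 and 2189 by the exact Wilcoxon test, the same numbers by limma treat against 10 points, and 2531 and 2185 without both 1L arrays, a setting chosen after seeing the data. Leaving out each array in turn gave 2523 to 2546 calls in brain and 2183 to 2203 in liver. It left 353 to 354 called list members (354 as reported) and 26 called sister forms (26 as reported).

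The genes with an SD of at least 5 points numbered 73 to 199 in brain and 877 to 964 in liver with each array left out, against 166 and 905 with all arrays, and 73 was the count without brain array 1L; these settings too were chosen after seeing the data. Of 4 results that turned round, all did so with the deposited log2 values centred on the array median: Glul (-1.17 log2 units), Psmd1 (-1.19), Rps6 (-1.56) and Sdha (-1.64). Of the named genes that were not called as reported, 35 were called on the common log2 scale. With centred log2 values 39 were called in the direction they had, beside the 4 that turned round. No called gene was lost on either scale. Ranks over all probes ended 11 calls and added 2, leaving out genes low in both tissues ended 4 and added 12, and the mean of all probes ended 1 and added 3. Egr1 differed by 16.7 points with ranks over all probes and was then not called. After the deposited values were centred, the median difference over all genes was -0.60 log2 units. Of 297 genes named, 291 kept their call with each array left out, and the rest were Aldh1l1, Egr1, Fosb, Moxd1, Rps4l and Spi1. Egr1, 21.02 points higher in brain with all arrays, differed by 18.6 points without liver array 2B and 19.5 without 3L. The haloperidol calls shared with placebo numbered 4314, and 4305 without haloperidol brain array 4T. With normal scores of the ranks the number was again 4314. There only the p changed and the floor of 20 points stayed on the percentile differences, so the number could hardly move.

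The title tags were tried as a replicate block over the 9 tags with both tissues, which gave 2535 calls in brain and 2185 in liver. With the block 354 list members, 26 sister forms and 176 rule-named genes were called (175 rule-named genes without it). Deviations of same-tag arrays correlated at -0.11 to 0.14, over 0.1 for 1 of 9 tags. Of 9 brain arrays, 2 correlated best with the liver array of their own tag. These correlations cannot show whether a shared tag marks the same mouse, because brain and liver of a mouse need not deviate together. The labels do not say what the tags mark, and the main fit treated the arrays as independent.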

Other observations

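Further gene families were counted by the start of the symbol, chosen after the data were seen. Over all genes, 13.5% were called higher in brain and 11.6% higher in liver. Of 17 serotonin receptor genes (Htr), 10 (58.8%) were called higher in brain and 0 higher in liver. Of 13 genes of nicotinic acetylcholine receptor subunits (Chrn), 5 (38.5%) were called higher in brain and 1 (7.69%) higher in liver. Of 77 genes of Rab GTPases and proteins named after them (Rab), 18 (23.4%) were higher in brain and 8 (10.4%) higher in liver. Of 48 serine protease inhibitor genes (Serpin), 1 (2.08%) was higher in brain and 16 (33.3%) higher in liver. Keratins and their kin (Krt) had 2 of 98 (2.04%) higher in brain and 6 (6.12%) higher in liver. The vomeronasal receptors (Vmn) had 1 of 167 (0.599%) higher in brain and 0 higher in liver. Of 56 small nucleolar RNA genes (Snor), which guide the modification of ribosomal RNA, 0 were called higher in brain and 19 (33.9%) higher in liver. Symbols that start with Rps include kinases of ribosomal proteins and other genes beside the proteins of the small subunit. Of 35 such genes, 4 (11.4%) were higher in brain and 3 (8.57%) higher in liver, both under the shares over all genes. Those higher in brain were Rps6ka3, Rps6ka5, Rps6ka6 and Rps6kl1, kinases or kinase-like genes, and those higher in liver Rps23rg1, Rps27l and Rps4l. Rps4l (-20.1 points) was not called, at -19.96 to -19.5 points, without any one of brain arrays 1L, 1N, 1T and 2B or of liver arrays 2B, 3N, 3T and 4R, and Rps6ka3 was not called with ranks over all probes (17.5 points). Symbols that start with Rpl gave 0 of 47 higher in brain and 1 higher in liver, Rpl26 (-27.1 points), a protein of the large subunit that the ribosomal list did not hold. These genes were looked up after the counts were seen. The share of probes of these families that also read other transcripts was not tested.

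Without the 1L arrays, the genes of largest spread between brain arrays were mostly other ones. Gh still had an SD of 13.1 points over the 9 brain arrays left, Acta2, the actin of smooth muscle, spanned 64.9, 73.4 and 88.4 (lowest, median and highest array), and Npas4, a transcription factor induced by neuronal activity, spanned 55.1, 67.3 and 74.9. In the 8 liver arrays left, Egr1, an early response factor, spanned 46.6, 61.9 and 82.2, and Tff3, a peptide of mucus-secreting cells, 48.8, 61.1 and 85.0.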
